A study of Mus musculus with 4 samples.

Results

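Immunoglobulin genes were examined in c-Kit+ leukemic cells of MLL-AF9-driven acute myeloid leukemia (AML) in mice, with and without overexpression of Suv39h1, a histone methyltransferase that writes the repressive mark H3K9me3. The rows of the deposited expression table were taken whose Ensembl identifier has, in the GENCODE M21 annotation of GRCm38 (the same assembly as mm10), an immunoglobulin biotype and a symbol of the heavy chain (Igh), kappa (Igk) or lambda (Igl) locus. The rule itself used no measured value, although these genes were chosen with earlier results of these data known. Of the 23552 genes in the table, 182 met it. They were 111 Igh genes (98 V, 2 D and 4 J segments and 7 constant-region genes), 65 Igk genes (61 V, 3 J and 1 constant) and 6 Igl genes (3 V and 3 constant). The annotation holds 395 genes of this description, and the other 213 have no row in the table. No gene of the table is at 0 in every library, and the members with the fewest reads had 2 over the 4 libraries.

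Both groups carried the MLL-AF9 fusion oncogene on a C57BL/6 background. Controls were AML cells transduced with a control-eGFP vector (control replicates 3 and 4), and SUV-OE cells carried a Suv39h1-eGFP overexpression vector (SUV-OE replicates 2 and 3). Sorted eGFP+ leukemic cells had been transplanted into sublethally irradiated mice (the methods name 8-week-old females), whose own hematopoiesis is not fully removed by such a dose, and c-Kit+ cells were enriched from moribund recipients. All 4 libraries belong to the second RNA-seq batch, and nothing in the labels says that the libraries of a group came from separate animals, so the p-values measure only the spread between these libraries.

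An antibody gene is assembled in developing B cells by the RAG recombinase, which joins a V segment to a J segment, in the heavy chain with a D segment between them. The joined V(D)J exon is then spliced to a constant region: Ighm gives IgM, Ighd IgD, the Ighg genes IgG and Igha IgA, and the last of these are used after class switching. Unrearranged segments and constant regions can also be transcribed, as germline or sterile transcripts, and a gene-level value does not separate these from transcripts of a rearranged gene. AML blasts are myeloid and are not expected to hold an assembled antibody gene in most cells, although partial rearrangements occur in leukemias.

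The V segments on which the results turn are Ighv11-2 and Ighv7-1 with Igkv14-126 and Igkv15-103, the leading segments of their loci, and Ighv1-41, a pseudogene that led the heavy chain in the control libraries. The last 60 bases of each annotated transcript are shown, since this end codes for the start of the third complementarity-determining region and is where joining takes place. Capitals mark the last match, on the coding strand, to TANTNNTGN, the codons for a tyrosine, a further residue and the cysteine that closes the V domain.
Ighv11-2: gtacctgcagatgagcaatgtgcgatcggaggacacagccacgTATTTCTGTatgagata
Ighv7-1: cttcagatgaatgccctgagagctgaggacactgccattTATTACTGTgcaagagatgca
Igkv14-126: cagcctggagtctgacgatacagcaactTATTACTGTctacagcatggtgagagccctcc
Igkv15-103: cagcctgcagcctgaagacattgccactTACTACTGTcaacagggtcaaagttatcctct
Ighv1-41: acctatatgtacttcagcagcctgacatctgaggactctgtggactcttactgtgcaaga

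On GRCm38 these ends lie at chr12:114048241-114048300 (Ighv11-2), chr12:113896408-113896467 (Ighv7-1) and chr12:114932371-114932430 (Ighv1-41) on the minus strand, and at chr6:67896583-67896642 (Igkv14-126) and chr6:68437866-68437925 (Igkv15-103) on the plus strand. The motif was found in the last 60 bases of 152 of the 162 V segments in the table (93.8%), and in 12 of the 17 annotated as pseudogenes. Ighv1-41 is among those without it. The 4 heavy-chain J segments are shown as their annotated J transcripts, with capitals for TGGGGN, the codons for the tryptophan and the first glycine of the J region motif, found in each of the 4 (100%).
Ighj1: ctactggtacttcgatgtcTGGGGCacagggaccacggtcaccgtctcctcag
Ighj2: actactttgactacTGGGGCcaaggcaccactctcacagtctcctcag
Ighj3: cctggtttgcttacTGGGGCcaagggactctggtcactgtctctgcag
Ighj4: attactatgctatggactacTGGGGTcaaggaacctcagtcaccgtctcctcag

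These lie on the minus strand of chromosome 12, from chr12:113429781-113429833 (Ighj1) through chr12:113429468-113429515 (Ighj2) and chr12:113429085-113429132 (Ighj3) to chr12:113428514-113428567 (Ighj4), between the D segments and Ighm. The Ighj2 gene is annotated over 100 bases, with a further processed transcript beside the 48 bases shown. The segments are as short as 48 bases, so a single read weighs much in their FPKM (given with the J segments). They are also shorter than the 150-base reads, and the effect of this on their read numbers was not tested.

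Values in the table are FPKM (fragments per kilobase of exon, scaled to the mapped fragments of the library). For 181 of the 182 immunoglobulin genes, FPKM times exon length fell on whole multiples of a fixed step in each library, within 0.01 reads, so read numbers could be recovered. For Ighg3 this held at a length of 1082 bases and not at its annotated exon length of 2512 bases. The libraries held between 16827865 and 19700707 recovered reads, and levels of groups of genes are given as RPM, recovered reads scaled to a library total of 1000000. Intervals on read numbers are exact 95% intervals that cover counting error only. Suv39h1 itself stood at 12.4 FPKM in both controls and at 75.3 and 81.2 FPKM in SUV-OE replicates 2 and 3 (log2 fold change 2.56, SE 0.11, limma adjusted p = 0.00866), and Kit, the antigen used for enrichment, at 19.2 to 28.6 FPKM in all 4 libraries.

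Immunoglobulin transcripts were a small part of every library and were more abundant in SUV-OE cells. All 182 genes together held 91.2 and 108 RPM in control replicates 3 and 4, and 285 and 348 in SUV-OE replicates 2 and 3. The groups did not overlap, with means of 99.7 ± 12.1 (SD, n = 2) and 317 ± 44.4 (SD, n = 2), a 3.17-fold difference. The exact two-sided permutation p was 0.333, which is the smallest that 2 against 2 libraries allow. In bulk RNA, more cells of one kind and more RNA per cell cannot be told apart.

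Each locus had this direction. The heavy chain locus held 72.8 and 79.9 RPM in the controls and 189 and 234 in SUV-OE cells, which is 2.77-fold (counting interval 2.67 to 2.91). Kappa stood at 18.2 and 26.3 RPM in the controls and at 92.6 and 109 in SUV-OE cells, or 4.53-fold (4.25 to 4.96). Lambda was near the detection limit, with 0.254 and 2.06 RPM in the controls and 3.33 and 4.59 in SUV-OE cells, so that its 3.42-fold ratio became 1.92-fold without control replicate 3 and 15.6-fold without control replicate 4.

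**Figure D1:**
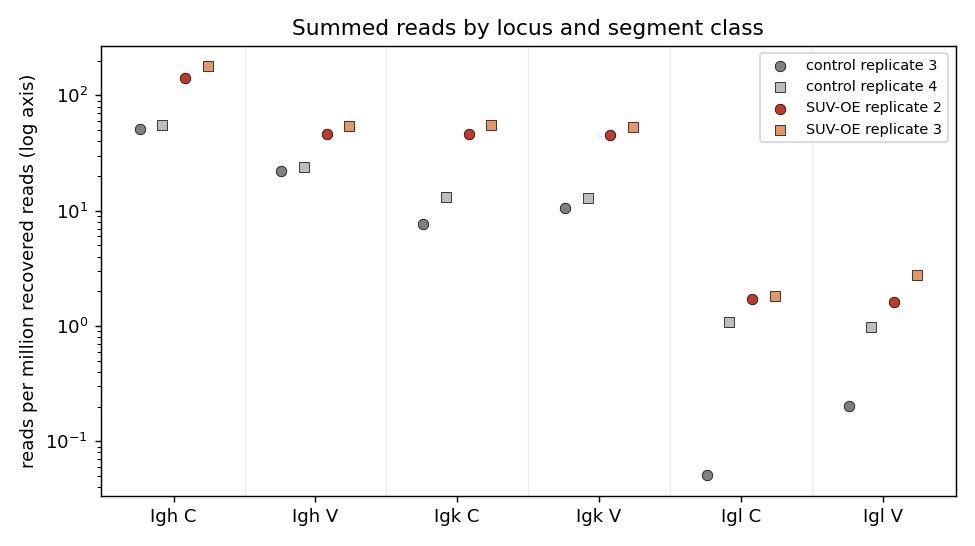
Summed recovered reads of constant regions (C) and V segments (V) of the heavy chain (Igh), kappa (Igk) and lambda (Igl) loci, in RPM on a log axis, with 1 point per library. In all 6 groups both SUV-OE libraries lie above both control libraries, and lambda lies well below the other loci.

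Single genes were compared with limma on log2(FPKM + 1). The test covered the 72 immunoglobulin genes that averaged 0.5 FPKM or more, and the other 110 were below that filter. Differentially expressed genes (DEGs) had to pass an adjusted p of 0.05 and a log2 fold change of 1 in either direction, which 1.22% of all 13736 tested genes met (0.815% as higher and 0.408% as lower in SUV-OE). By this rule 4 immunoglobulin genes rose and 0 fell: Ighm, Ighj1, Ighj3 and Ighj4. Of the 72, 35 had a control mean under 0.5 FPKM and passed the filter through their SUV-OE values, Ighj1 and Ighj3 among them. The calls of Ighj1 and Ighj3, and counts and medians over the 72, are therefore a description only. The median log2 fold change of the 72 was 0.65 (−0.02 over all tested genes), and 23 of them had an unadjusted p under 0.05 (20.7% of all tested genes did). Without the filter, 39 of the 182 had an unadjusted p under 0.05, of which 35 were higher, and this share of 21.4% stood beside 17.7% of all genes. In recovered reads, with genes at 0 in a group set to the floor of 3 reads over that group, the median log2 ratio was 1.31 over the 127 of the 182 above that floor in either group. Of these, 31 were at 0 in the controls and 2 at 0 in SUV-OE cells. This median is likewise a description only, and none over all genes was taken beside it.

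The calls differed between the methods. limma-voom on the recovered reads, for genes averaging 10 reads or more, tested 21 immunoglobulin genes and called 6, all of them higher in SUV-OE (5.39% of 14121 genes were called, 4.41% as higher): Ighm, Igkc, Ighv11-2, Ighv7-1, Igkv14-126 and Igkv15-103. Only Ighm was called by both fits. With any one library left out, limma called 0 of the 13736 genes and so 0 immunoglobulin genes. An unadjusted p under 0.05 was then found for 17 of the 72 without control replicate 3 and 21 without control replicate 4 (22.9% and 28.2% of all tested genes), and for 30 without SUV-OE replicate 2 and 28 without SUV-OE replicate 3 (8.49% and 9.17%), with the same limit from the filter.

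Without a filter on expression, the SUV-OE libraries both exceeded the control libraries for 63 of the 182 immunoglobulin genes (34.6%) and both fell below them for 7 (3.85%), against 25.7% and 21.9% of all genes in the table. Reads were found only in SUV-OE libraries for 52 of the genes (28.6%) and only in control libraries for 7 (3.85%), against 5.75% and 3.42% of all genes in the table, which were not matched for read number. Of these 59 genes, 26 had at most 3 reads in all. In total 55 of the 182 had at most 3 reads over each group, the floor used here, and no ratio is given for them.

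The most abundant constant regions, Ighm and Igkc, were also those with the clearest separation of the groups. Ighm, the IgM heavy chain constant region (chr12:113418558-113422730, minus strand), stood at 25.3 and 23.3 FPKM in control replicates 3 and 4 and at 61.6 and 87.7 FPKM in SUV-OE replicates 2 and 3, from 928, 740, 2061 and 2940 reads. The groups were far apart, and Ighm rose with a log2 fold change of 1.56 (SE 0.20, limma adjusted p = 0.0499). That p lay at the threshold and was between 0.0523 and 0.137 with a pseudocount of 0.1, median-of-ratios scaling, no variance trend or no expression filter, between 0.132 and 0.259 with a library left out, and 0.00437 by limma-voom.

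Igkc, the kappa constant region, stood at 14.5 and 25.8 FPKM in the controls and at 83.2 and 103 FPKM in SUV-OE cells, from 150, 232, 785 and 973 reads. Its log2 fold change of 2.20 (SE 0.29) missed the threshold in limma (adjusted p = 0.0559) and passed it in limma-voom (adjusted p = 0.00432). Per unit of length, Igkc was at 0.573 and 1.11 times the level of Ighm in control replicates 3 and 4 and at 1.35 and 1.17 times in SUV-OE replicates 2 and 3. A non-coding transcript, Gm30211, overlaps Igkc on the same strand, with 0, 0, 2 and 10 reads in the 4 libraries, and reads in the overlap cannot be told apart.

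Of the 5 constant regions used after class switching, the 3 that were tested were not called, and Ighg1 and Ighg2c were below the expression filter. Igha, the IgA constant region, had 31 and 119 reads in the controls and 176 and 108 in SUV-OE cells, and the groups overlapped (log2 fold change 0.70, limma adjusted p = 0.424). Ighg2b had 14, 61, 79 and 35 reads (log2 fold change 0.32, adjusted p = 0.673 by limma). Ighg3 had 21, 48, 30 and 8 reads (log2 fold change −0.50, adjusted p = 0.544 by limma). In all 3 the spread within a group was as large as the difference between the groups.

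The rarer isotypes were close to the detection limit. Ighg1 had 0, 2, 19 and 1 reads, nearly all of them in SUV-OE replicate 2. Ighg2c had 7, 5, 6 and 3 reads. Ighd, which gives the IgD of mature naive B cells, had 0, 2, 6 and 20 reads, with both SUV-OE libraries above the controls and a 3.22-fold difference in RPM between the SUV-OE libraries.

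As a share of all heavy chain constant-region reads, Ighm made up 92.7% (exact interval 90.9 to 94.2) and 75.7% (72.9 to 78.4) in control replicates 3 and 4, and 86.7% (85.3 to 88.0) and 94.4% (93.5 to 95.2) in SUV-OE replicates 2 and 3. The Igha and Ighg genes together held 7.29%, 24.1%, 13.04% and 4.98%. Single libraries differed from each other beyond counting error, and for both shares the groups overlapped.

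Of the lambda constant regions, Iglc1 had 0, 11, 14 and 12 reads, Iglc2 had 1, 6, 7 and 9, and Iglc3 had 0, 2, 8 and 11. None was called (limma adjusted p from 0.116 to 0.413), and the low value in control replicate 3 set most of the difference for Iglc1. Iglc1, Iglc3 and Iglv1 overlap 2010309G21Rik on the opposite strand, and the libraries did not keep strand, so their reads cannot be told apart. Lambda made up 0.662%, 7.57%, 3.56% and 3.18% of light chain constant-region reads in the 4 libraries.

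**Figure D2:**
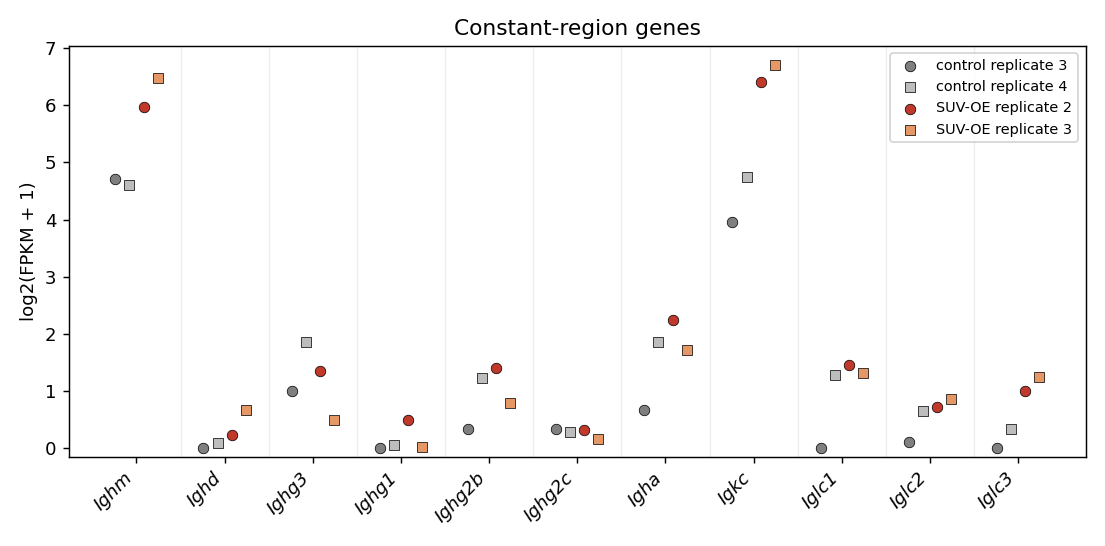
Level of each of the 11 constant-region genes as log2(FPKM + 1), with 1 point per library. Ighm and Igkc stand above all others and have both SUV-OE points above both control points, while the Ighg genes and Igha overlap between the groups.

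The heavy chain J segments, which are joined to D and V in a rearranged gene, were almost without reads in the controls. Ighj1 had 0, 0, 8 and 4 reads in control replicates 3 and 4 and SUV-OE replicates 2 and 3. Ighj2 had 0, 0, 11 and 3, and Ighj3 had 0, 0, 4 and 6. Ighj4, the J segment nearest to Ighm, had 0, 1, 11 and 15. Together the 4 segments held 1 read in the controls and 62 in SUV-OE cells, and the SUV-OE libraries contributed 34 and 28 of them.

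Against a floor of 3 reads over the control group, Ighj1 was at least 4.34-fold, Ighj2 at least 5.06-fold and Ighj3 at least 3.62-fold higher in SUV-OE cells. The exact lower limits, which also carry the counting error of the SUV-OE reads, were 3.014, 3.599 and 2.432. For Ighj4 the ratio was 26.4 with a counting interval of 4.63 to 1156. In the limma fit Ighj4 rose with a log2 fold change of 3.31 (adjusted p = 0.0434), Ighj3 with 2.76 (adjusted p = 0.0251) and Ighj1 with 2.82 (adjusted p = 0.0405), and Ighj2 did not pass (2.14, adjusted p = 0.118). The fitted sizes depend on the pseudocount, since the controls are at or near 0, and with a pseudocount of 0.1 Ighj4 was no longer called (log2 fold change 5.29, limma adjusted p = 0.123), while Ighj1 and Ighj3 were. On such short segments a single read is worth up to 1.23 FPKM (Ighj3), against at most 0.0314 FPKM for Ighm, so a few reads carried them past the expression filter. Ighj1, Ighj2 and Ighj3 had 0 reads in the controls and passed it through their SUV-OE values alone, so their limma results are a description only. In limma-voom for genes averaging 1 read or more, none of the 3 called J segments passed (adjusted p from 0.0725 to 0.112).

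The D segments, which lie between V and J in the heavy chain, had 0 reads in the controls and 1 and 4 in SUV-OE replicates 2 and 3. The 3 kappa J segments with a row had 1, 2, 3 and 1 reads together, and the groups overlapped.

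V segments contributed 433 and 418 heavy chain reads in control replicates 3 and 4 and 773 and 940 in SUV-OE replicates 2 and 3. In RPM these were 22.0, 23.9, 45.9 and 53.9, a 2.18-fold difference with groups that did not overlap. The kappa V segments held 10.5 and 12.9 RPM in the controls and 45.8 and 53.1 in SUV-OE cells, a 4.23-fold difference. In number of reads, kappa V segments held 1.38, 0.97, 0.98 and 0.95 times the reads of Igkc in the 4 libraries, while heavy chain V segments held 0.43, 0.43, 0.33 and 0.30 times the reads of the heavy chain constant regions.

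A few segments carried most of the difference, and they differed in which SUV-OE library was the higher. Ighv11-2 had 28 and 27 reads in the controls and 124 and 322 in SUV-OE cells, 8.71-fold in RPM (counting interval 6.64 to 11.9). Igkv14-126 had 21 and 23 reads in the controls and 135 and 376 in SUV-OE cells, 12.4-fold (9.25 to 17.6). Both were higher in SUV-OE replicate 3 than in replicate 2, by 2.51 and 2.69 times in RPM. Ighv11-2 and Igkv14-126 are known as the heavy and light chain V segments of the phosphatidylcholine-binding antibodies made by many B-1a cells, a B cell population that arises largely before birth.

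Ighv7-1 had 63 and 26 reads in the controls and 194 and 129 in SUV-OE cells, 4.04-fold (3.10 to 5.04). Igkv15-103 had 112 and 65 reads in the controls and 340 and 211 in SUV-OE cells, 3.43-fold (2.85 to 4.02). Here SUV-OE replicate 2 was the higher of the 2 libraries, and replicate 3 was at 0.642 and 0.599 of its level.

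Within a library, the FPKM of Igkv14-126 lay at 0.966 and 1.10 times that of Ighv11-2 in the controls and 1.40 and 1.504 times in SUV-OE cells. Igkv15-103 stood at 1.72, 2.42, 1.70 and 1.58 times the FPKM of Ighv7-1. The ratio of Ighv11-2 to Ighv7-1 ranged more widely, at 0.350, 0.818, 0.503 and 1.97 in the 4 libraries. These 2 combinations were noticed after the values were seen, and no test was made of them.

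By limma these 4 segments had log2 fold changes of 2.57 (Ighv11-2, adjusted p = 0.0795), 3.06 (Igkv14-126, adjusted p = 0.0688), 1.82 (Ighv7-1, adjusted p = 0.0983) and 1.603 (Igkv15-103, adjusted p = 0.0883). None reached the DEG threshold there. In limma-voom all 4 did, with adjusted p-values from 0.0291 to 0.0316. Of the 100-base windows of Ighv11-2, 17.4% are shared with 1 other immunoglobulin gene, so some of its reads may belong to that gene, and Ighv7-1, Igkv14-126, Igkv15-103 and Ighv1-41 share no such window. Over all V segments in the table, 27 of 98 in the heavy chain and 31 of 61 in kappa share at least 1 window.

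Ighv1-41, annotated as a pseudogene and so not expected to code for a complete V domain, was lower in SUV-OE cells in both libraries than in the controls. It had 129 and 171 reads in the controls and 79 and 112 in SUV-OE cells, 0.681-fold in RPM (0.573 to 0.831), with a log2 fold change of −0.60 that did not pass (limma adjusted p = 0.287). It took 29.8% and 40.9% of the heavy chain V reads in the controls, where it was the leading segment, while Ighv7-1 led in SUV-OE replicate 2 with 25.1% and Ighv11-2 in SUV-OE replicate 3 with 34.3%.

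The remaining named heavy chain segments followed no common pattern. Ighv1-23 had 33, 25, 38 and 27 reads, and the groups overlapped. Ighv1-26 had 15, 16, 11 and 37, with overlapping groups and a 3.25-fold difference in RPM between the SUV-OE libraries (counting interval 1.62 to 7.06). Ighv9-3 had 4, 1, 47 and 3 reads, nearly all in SUV-OE replicate 2. Ighv5-4 had 31, 4, 3 and 2, mostly in control replicate 3. Ighv4-1 had 4, 3, 10 and 28, with both SUV-OE libraries above the controls (log2 fold change 1.20, limma adjusted p = 0.175).

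Kappa held more such segments. Igkv3-2 had 2, 3, 6 and 50 reads and Igkv10-96 had 12, 5, 16 and 50, both led by SUV-OE replicate 3. Igkv4-59 had 5, 0, 33 and 11 reads and Igkv19-93 had 16, 3, 32 and 13, both led by SUV-OE replicate 2. Among the lambda segments Iglv1 had 1, 11, 26 and 38 reads, Iglv2 had 3, 4, 1 and 6, and Iglv3 had 0, 2, 0 and 4. None of these 7 was called by limma where tested (Iglv3 was below the expression filter).

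**Figure D3:**
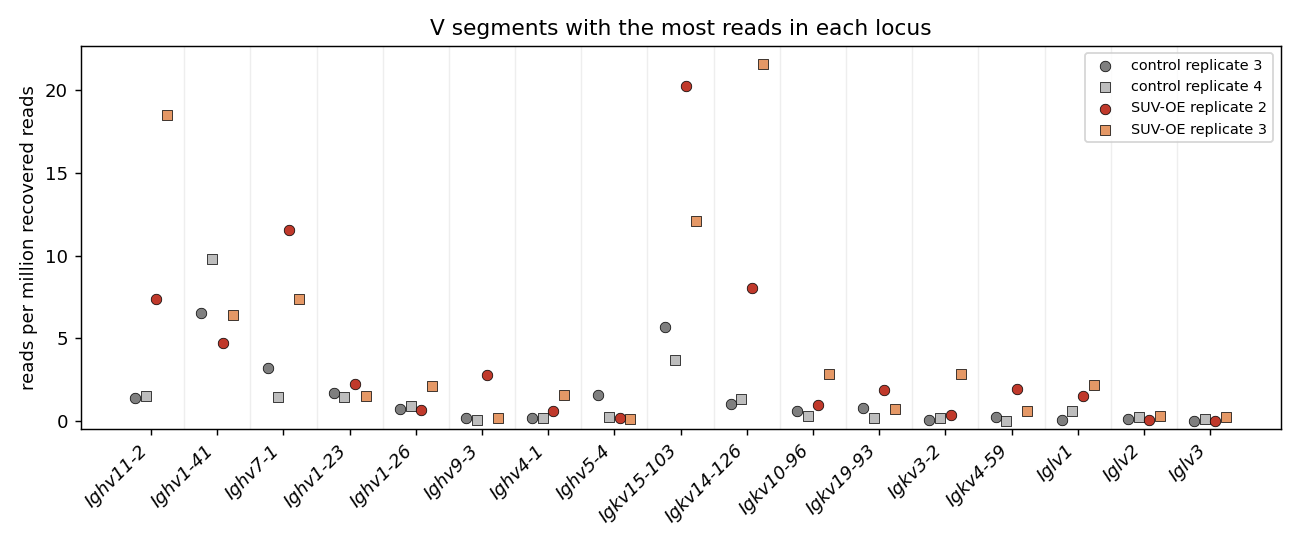
The 8 heavy chain, 6 kappa and 3 lambda V segments with the most reads, in RPM, with 1 point per library. Ighv11-2 and Igkv14-126 are highest in SUV-OE replicate 3, Ighv7-1 and Igkv15-103 are highest in SUV-OE replicate 2, and Ighv1-41 is highest in control replicate 4.

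More V segments were seen in SUV-OE cells. In the heavy chain 49 and 55 of the 98 segments had at least 1 read in control replicates 3 and 4, and 76 and 79 in SUV-OE replicates 2 and 3. In kappa 20 and 36 of the 61 segments had reads in the controls, and 53 and 40 in SUV-OE cells. With reads thinned to the shallowest library the mean numbers were 50.8 and 77.2 in the heavy chain and 27.3 and 46.4 in kappa. These numbers move with the total of V reads, which was higher in SUV-OE cells. The effective number of segments, the inverse of the summed squared shares, was 7.72, 5.42, 9.15 and 6.42 in the heavy chain and 3.15, 7.75, 4.29 and 4.41 in kappa, and overlapped between the groups.

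Over both libraries of a group, 67 heavy chain V segments had reads in both groups, 26 only in SUV-OE cells and 5 only in controls. Of all genes in the table, not matched for read number, 5.75% had reads only in SUV-OE and 3.42% only in control libraries. The 26 held 132 reads together and at most 14 each. In kappa the corresponding numbers were 38, 21 and 2, and the 21 held 114 reads together and at most 17 each. These segments were thinly covered, and 3 heavy chain V segments held 50% of the V reads in every library.

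Along the heavy chain locus the ratio of SUV-OE to control was larger for the V segments on the side of the constant regions. The V segments were ranked by distance from Ighm and split at the middle of the rank. The 49 proximal segments, 156 to 1366 kb from Ighm, held 11.1 and 8.76 RPM in the controls and 33.5 and 37.7 in SUV-OE cells, 3.59-fold. The 49 distal segments, 1382 to 2578 kb away, held 10.9 and 15.2 in the controls and 12.5 and 16.2 in SUV-OE cells, 1.10-fold, and the groups overlapped. The ratio did not fall steadily with distance: with the rank split into 3, the log2 ratio was 2.26 for the nearest 32, 0.19 for the middle 34 and 0.64 for the farthest 32 segments. The difference between the sets was not tested.

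Single segments weighed on both values. Without Ighv11-2 and Ighv7-1, which lie among the proximal segments, these held 6.45, 5.73, 14.6 and 11.8 RPM, 2.17-fold. Among the distal segments Ighv1-41 held most reads, and the 34 with a functional annotation had a log2 ratio of 0.80. Over the whole heavy chain, the 82 functional V segments held 14.5, 13.4, 38.7 and 46.1 RPM, 3.05-fold, and the 16 pseudogenes held 7.51, 10.5, 7.19 and 7.80, 0.831-fold. Without Ighv1-41 the other 15 pseudogenes held 0.964, 0.744, 2.50 and 1.38 RPM, 2.27-fold. The large Ighv1 family, with 57 segments in the table, held 13.5, 17.6, 17.5 and 19.8 RPM.

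In kappa both sides of the locus were higher in SUV-OE cells. The 30 segments proximal to Igkc held 1.57 and 4.24 RPM in the controls and 9.75 and 9.98 in SUV-OE cells, 3.40-fold, which became 6.27-fold without control replicate 4. The 31 distal segments, which include Igkv14-126 and Igkv15-103, held 8.93, 8.65, 36.0 and 43.1, 4.50-fold. In neither set did the groups overlap. With the rank split into 3, the log2 ratios were 2.196 nearest to Igkc, 1.38 in the middle and 2.1997 farthest away.

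**Figure D4:**
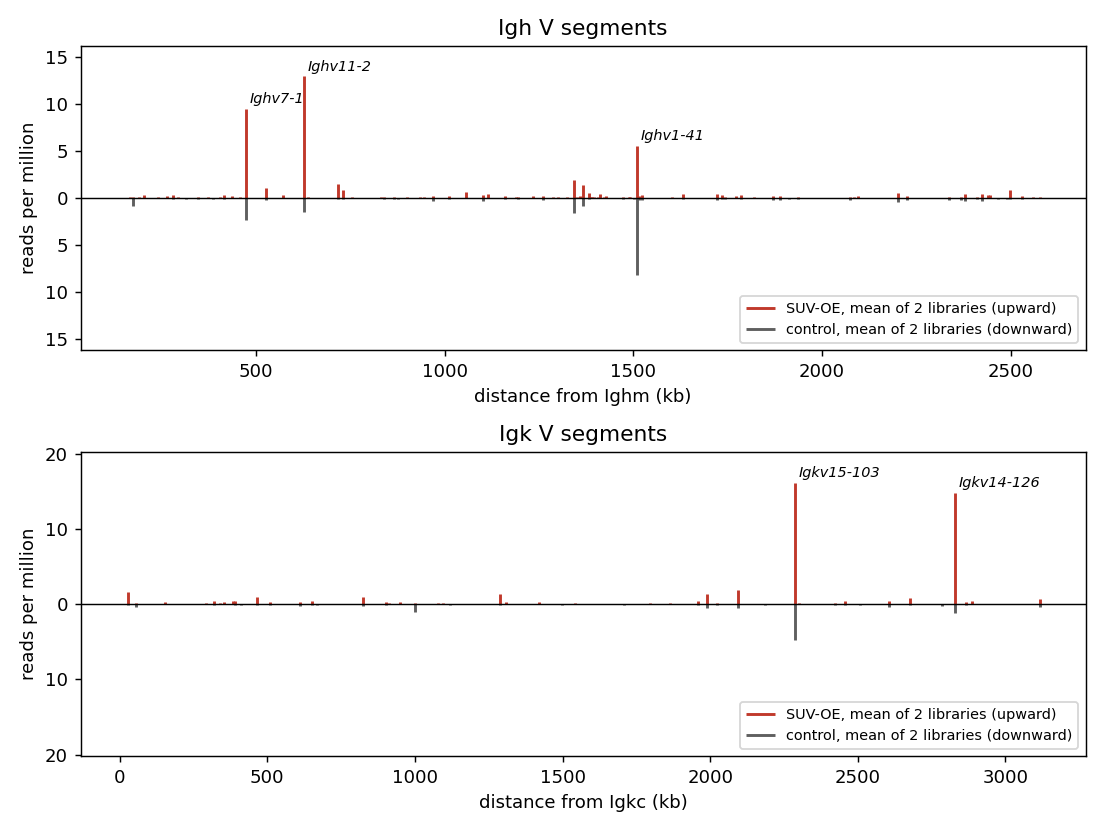
Mean RPM of each V segment of the heavy chain (above) and kappa (below) locus against its distance in kb from Ighm or Igkc, with SUV-OE drawn upward and control downward (each the mean of 2 libraries). Ighv7-1 and Ighv11-2 lie at the constant-region side of the heavy chain locus, Ighv1-41 lies farther away with its taller bar on the control side, and Igkv15-103 and Igkv14-126 lie far from Igkc.

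The protein-coding genes beside the loci gave no call where tested. The 3 nearest protein-coding genes on each side of the 3 loci gave 18 neighbours, of which 13 were tested, with log2 fold changes from −0.50 to 0.56 and 0 called by limma. Within the Igh span, the non-coding Gm30948 had 218, 93, 123 and 168 reads, Gm9134 6, 7, 6 and 11, and Gm9256 3, 13, 2 and 5. Of 21 other genes within the loci 5 were tested and 2 called by limma (1.22% of all tested genes), and both are named here after their values were seen. Both were at 0 in the controls and passed the filter through their SUV-OE values. Gm22175, a gene annotated as a miRNA between Ighm and Ighj4, had 0, 0, 5 and 3 reads (log2 fold change 1.93, limma adjusted p = 0.0434). Gm38184, a V pseudogene whose symbol lies outside the rule, had 0, 0, 5 and 7 reads (1.98, limma adjusted p = 0.0309).

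The machinery that assembles and accompanies immunoglobulin was then examined, from lists written from general knowledge but with earlier results of these data known. Of the 8 genes for recombination and the surrogate light chain, which pairs with IgM heavy chain before a light chain is made, both SUV-OE libraries lay above both controls for 7 (25.7% of all genes in the table did), and limma called 1 (1.22% of all tested genes). Vpreb2, a surrogate light chain subunit, was listed at 0 FPKM in both controls and stood at 1.97 and 3.28 FPKM in SUV-OE cells (log2 fold change 1.83, limma adjusted p = 0.0480). The median log2 fold change of the 8 was 2.02, and limma-voom called 6 of the 8 (5.39% of all genes it tested). Of the 8, 5 had a control mean under 0.5 FPKM and passed the filter through their SUV-OE values, Vpreb2 among them. The median and the calls of both fits are therefore a description only.

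SUV-OE replicate 3 stood above replicate 2 for all 8, by factors that differed between the genes. Rag1, a subunit of the recombinase, stood at 0.0700, 0.143, 2.09 and 7.32 FPKM. Dntt, the polymerase that adds bases at the junctions, stood at 0.0725, 0.390, 6.01 and 19.0 FPKM. Igll1, the other surrogate light chain subunit, stood at 0.166, 0.411, 4.11 and 15.3 FPKM. Vpreb1 stood at 0.277, 0.745, 6.23 and 19.3 FPKM. SUV-OE replicate 3 was 3.09 to 3.72 times as high as replicate 2 for these 4 genes, while it was 1.42 times as high for Ighm and 1.24 times for Igkc. Their log2 fold changes lay between 2.20 and 3.28, with limma adjusted p-values from 0.0692 to 0.113. The factor was 2.64 for Vpreb3, 1.83 for Rag2, 1.70 for Il7r and 1.66 for Vpreb2. Vpreb3 stood at 2.57, 1.79, 4.40 and 11.6 FPKM and Il7r, the receptor for interleukin 7, at 0.465, 0.425, 1.44 and 2.45 FPKM, and limma called neither (adjusted p = 0.181 and 0.113). Rag2, the partner of Rag1, stood at 0.946, 1.28, 1.12 and 2.05 FPKM, and the groups overlapped.

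Of the 15 B lineage genes, both SUV-OE libraries lay above both controls for 9 and below them for 1 (25.7% and 21.9% of all genes). Limma called 0 of the 8 tested and limma-voom called 6 of 9, against 5.39% of all genes it tested. Of the 8, 5 had a control mean under 0.5 FPKM and passed the filter through their SUV-OE values, so these counts are a description only. Cd79a, which with Cd79b carries the signal of surface immunoglobulin, stood at 0.635, 1.10, 5.49 and 11.7 FPKM. Cd79b, in contrast, stood at 17.4, 25.01, 17.2 and 23.4 FPKM, with no difference between the groups and a direction that depended on the scaling. The markers of mature B cells were near 0: Ms4a1 was at most 0.0287, Cr2 at most 0.0632, Fcer2a at most 0.0575 and Cd22 at most 0.158 FPKM in any library. Summed over the list, FPKM were 20.4, 34.4, 33.5 and 54.1, with Cd79b the largest single part, and 2.97, 9.36, 16.3 and 30.7 without Cd79b. The part of B lineage cells in the immunoglobulin values was not tested.

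The transcription factors that act on immunoglobulin genes gave 1 DEG of 16 tested by limma (1.22% of all tested genes), while limma-voom called 11 of 20, all higher (4.41% of all genes were called higher). Both SUV-OE libraries lay above the controls for 13 and below them for 2 (25.7% and 21.9% of all genes). The 2 were Spi1, at 152, 113.2, 112 and 111.8 FPKM, and Ikzf3, at 1.51, 2.10, 0.837 and 0.855 FPKM, and limma called neither (adjusted p = 0.540 and 0.169). Irf8, which acts in both B and myeloid cells, stood at 5.22, 5.01, 11.6 and 11.04 FPKM and rose with a log2 fold change of 1.01 (limma adjusted p = 0.0405). Of the B lineage factors, Pax5 stood at 0.0232, 0.0335, 0.637 and 1.96 FPKM and Ebf1 at 0.0105, 0.0729, 0.705 and 2.39 FPKM. Limma called neither (adjusted p = 0.168 and 0.173), and limma-voom called both (adjusted p = 0.0280 and 0.0410). The broadly expressed Tcf3, Ikzf1 and Yy1 overlapped between the groups. Of 9 genes for non-homologous end joining, which works in all cells and also closes the breaks of V(D)J joining, 0 were called by limma or limma-voom. Their median log2 fold change was 0.03, and 4 lay above and 2 below the controls (25.7% and 21.9% of all genes).

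Genes of plasma cells and antibody secretion gave 0 DEGs of 8 tested by limma and 2 of 9 by limma-voom (1.22% and 5.39% of all genes). Of the 11 in the table, both SUV-OE libraries lay above the controls for 5 and below them for 1 (25.7% and 21.9% of all genes). The median log2 fold change of the 8 was 0.09, 4 being positive, and the summed FPKM of 493, 518, 366 and 519 overlapped between the groups. Jchain, which links IgM and IgA into polymers, stood at 0.858, 1.79, 5.24 and 7.62 FPKM (log2 fold change 1.69, limma adjusted p = 0.0719). Mzb1, a chaperone of IgM assembly, stood at 0, 0.196, 1.49 and 7.27 FPKM (2.05, adjusted p = 0.163 by limma). The chaperone Hspa5 stood lower in both SUV-OE libraries, at 293, 261, 157 and 232 FPKM (log2 fold change −0.53, limma adjusted p = 0.296). Xbp1, the transcription factor of the secretory response, Fkbp11 and Creld2 overlapped between the groups, with log2 fold changes of −0.093, −0.094 and −0.0058.

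Markers of other blood cells were examined in the same libraries. Of 11 neutrophil genes, 7 were above the controls in both SUV-OE libraries and 3 below (25.7% and 21.9% of all genes). Ltf, a granule protein of maturing neutrophils, stood at 19.9, 40.3, 212 and 241 FPKM and was called by limma (log2 fold change 2.95, adjusted p = 0.0434). The 3 below were Mpo, Prtn3 and Ctsg, with log2 fold changes of −0.19, −0.36 and −0.95, and limma called none of them. Elane overlapped between the groups (log2 fold change 0.05). Limma-voom called 6 of the 11, all higher, against 4.41% of all genes it tested. Their summed FPKM ran from 5670 and 7909 in the controls to 10084 and 12307 in SUV-OE cells. Of 14 T and NK cell genes in the table, 6 were above the controls in both SUV-OE libraries and 1 below (25.7% and 21.9% of all genes), and limma and limma-voom each called 0 of 3 tested. Their summed FPKM were 75.7, 115, 79.0 and 85.7, most of it from Nkg7, and the defining T cell gene Cd3e was at most 0.0825 FPKM in any library. The part of these cells in the immunoglobulin values was not tested either.

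**Figure D5:**
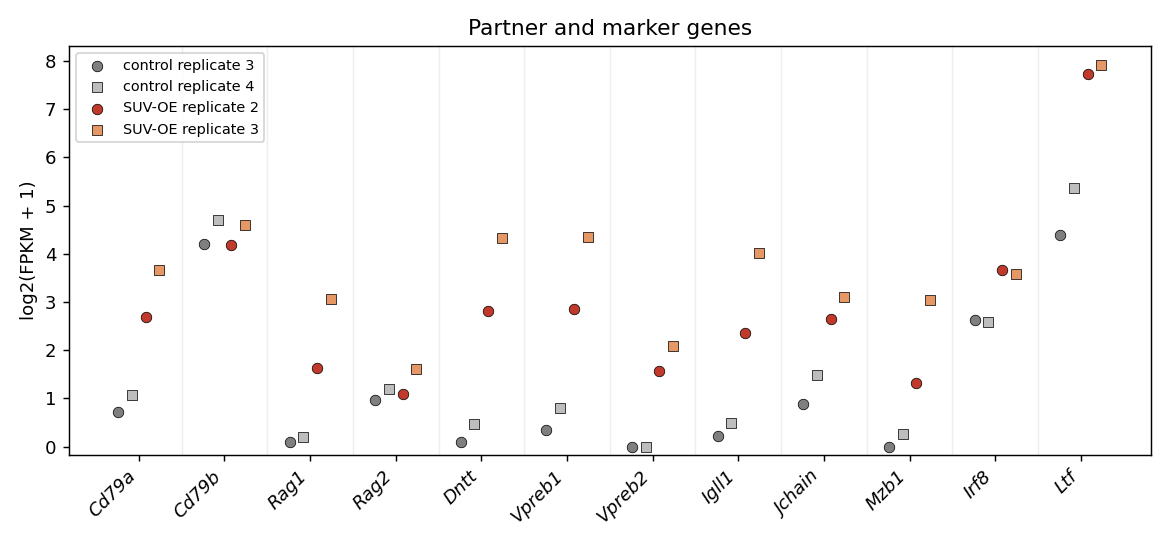
Level of 12 partner and marker genes as log2(FPKM + 1), with 1 point per library. Cd79a, Rag1, Dntt, Vpreb1, Vpreb2, Igll1, Jchain and Mzb1 are low in the controls and highest in SUV-OE replicate 3, whereas Cd79b and Rag2 overlap between the groups.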

How the data were processed

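RNA of c-Kit+ AML cells was sequenced by the authors from TruSeq RNA v2 libraries, which do not keep strand, as 150-bp paired ends on an Illumina HiSeq instrument. According to the study's methods and the submitters' processing notes, reads were handled with CASAVA 1.8 and aligned to mm10 with TopHat2, and the deposited table gives FPKM, which the authors' methods credit to Cufflinks, for each gene in each library. The annotation release is not given in the sources used here. The immunoglobulin genes and all lists were chosen with earlier results of these data known.

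FPKM were compared with limma 3.58.1 (R 4.3.3) on log2(FPKM + 1), with a variance trend and the group as the only term, over 13736 genes with a mean of at least 0.5 FPKM and Benjamini-Hochberg adjustment. The test was checked on simulated data. Reads were recovered as FPKM times length over the value of 1 read. This gave whole numbers at the M21 exon length for 78.5% of the genes, so the totals are approximate. Sums of reads were compared with exact two-sided permutation tests.

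The genes named were all constant regions, J and D segments with at least 10 reads in a library, the 8 Ighv, 6 Igkv and 3 Iglv segments with the most reads, DEGs, and defining partner and neighbouring genes. Recombination signal sequences were not analysed here. Some genes of the partner lists are not reported here.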

Additional observations from a re-analysis of the deposited data

How the results depend on the processing

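The number of immunoglobulin DEGs, 4 as reported, was 0 without an expression filter (39 of 182, 21.4%, had an unadjusted p under 0.05, against 17.7% of all genes, and 0 of all 23552 genes were called), 0 with any one library left out and 11 of 72 at an adjusted p under 0.1 (2.49% of all genes). It was 3 with a pseudocount of 0.1 (0.844% of all genes), where 2 were shared with the 4 and Ighd1-1, with 3 reads in all, was new. It was also 3 with median-of-ratios scaling (1.24%) or no trend (1.40%), both without Ighm. It was 5 at a mean of at least 1 FPKM (1.44%) or with quantile normalization (1.19%), both with Igkc added, and 6 with limma-voom at a mean of at least 10 or 1 reads (5.39% and 3.34%). With at least 3 reads required, the mean number of V segments seen was 28 in control and 46 in SUV-OE for the heavy chain, and 14 and 28.5 for kappa.

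For the heavy chain V segments, the log2 ratio of 1.84 of the proximal segments was 2.26 with the rank split into 3, 1.43 without the V segment with the most reads and, chosen after seeing the data, 1.12 without Ighv11-2 and Ighv7-1. The distal value of 0.14 was 0.64 with the rank split into 3 (0.19 in the middle set) and 0.80 over functional segments only, and −0.08 to 0.40 with 1 library left out. In kappa the distal value of 2.17 was 2.52 without the V segment with the most reads and 1.57 without both leading segments, with 2.03 to 2.29 when 1 library was left out, and the proximal value of 1.76 then ran from 1.22 to 2.65.

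The ratios of all immunoglobulin genes and of the 3 loci kept their direction under every alternative, from 2.86-fold to 3.49-fold for all genes. With a library left out, the log2 ratio of the kappa J sum ran from −0.53 to 1.21. The log2 fold change of Cd79b, −0.06 as reported, was 0.032 with quantile normalization and 0.037 and 0.035 with limma-voom at a mean of 10 and of 1 read, and −0.31 to 0.20 with a library left out. With a library left out, the direction also turned for Ighg2b (−0.13 to 0.76), Ighv1-23 (−0.051 to 0.36), Ighv1-26 (−0.31 to 1.01) and Iglv2 (−0.41 to 0.33). The causes were not tested. No paired analysis was possible because replicate 3 is the single number that occurs in both groups. With 2 libraries a group and few reads on most segments, depth and replication limit what single segments can show.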
